A study of Danio rerio with 14 samples.

Results

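The comparison followed whole wild-type zebrafish embryos through gastrulation, from the shield stage at 6 hours post fertilization (hpf), the early gastrula, to mid-gastrula at 8 hpf. It was chosen by the library headings of the raw count table and holds 4 of the 14 libraries of the series, 2 at each stage. All genes that passed a filter on low counts were compared, 10029 of the 13830 gene symbols in the table. The series also holds 4 untreated bmp7 mutant libraries of the same stages, which share the fit and serve as the comparison at the end, and 6 libraries of treated mutants that were not used here. Each library was made from a pool of untreated whole embryos. The wild-type line was TU, and the library headings call the wild-type embryos Aub-/+ (carriers of one mutant bmp7a allele) while the sample labels call them wild-type. The mutants, headed Aub-/-, carried the sb1aub allele of bmp7a and came from homozygous parents. The sources do not say whether replicates came from separate crosses, so the p-values measure only the spread between these libraries, which may be technical.

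Gastrulation lays down the body plan. Cells at the margin move inward to form mesoderm and endoderm, the tissue spreads over the yolk and narrows along the dorsal midline, and graded BMP, Wnt, FGF, Nodal and retinoic acid signals divide the germ layers into regions. The ectoderm is split into neural plate, neural plate border and epidermis, and the Hox genes begin to mark position from hindbrain to tail. RNA that the mother placed in the egg is degraded over the same hours, while the extraembryonic yolk syncytial layer and enveloping layer differentiate.

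The wild-type libraries held 19549488 and 23153881 counts at 6 hpf and 16093361 and 16142613 counts at 8 hpf, and the 4 mutant libraries held 5034277 to 19326577. Replicates correlated across genes at r = 0.970 at 6 hpf and 0.966 at 8 hpf on the log2 scale, and each pair differed by more than counting noise. As a check of the genotype labels, bmp7a was at 56.4 and 52.3 counts-per-million (CPM) at 6 hpf and at 35.4 and 38.4 CPM at 8 hpf in wild-type embryos, and between 0.413 and 2.85 CPM in the 4 mutant libraries. Levels are CPM scaled by the normalization factors of the libraries, are not corrected for transcript length, and are compared only within a gene. Changes are log2 fold changes of 8 hpf over 6 hpf with their standard error (SE), from the quasi-likelihood test of edgeR with Benjamini-Hochberg adjustment over all transcripts tested. A gene was called at an adjusted p under 0.05, and a gene "rose" or "fell" only where it was called.

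At 8 hpf, 107 genes had risen, or 1.07% of those tested, and 69 had fallen, or 0.688%, together 176 genes or 1.75%. At an unadjusted p under 0.05 there were 1743 genes. Both 8 hpf libraries lay above both 6 hpf libraries in 2423 genes (24.2%) and below them in 2260 genes (22.5%), and all 176 called genes were among these. The genes that rose moved farther than those that fell. Their median log2 change was 2.67 against -1.51, and 42 of the 107 rose at least 8-fold while 5 of the 69 fell as far. Those that rose started low, with a median of 2.51 CPM at 6 hpf and 15.3 CPM at 8 hpf, and 43 of them (40.2%) were under 1 CPM at 6 hpf against 12.2% of all genes tested. Those that fell started high, with medians of 59.8 and 19.4 CPM, and 24 of them (34.8%) were at 100 CPM or more at 6 hpf against 16.9% of all genes. The median log2 change over all genes was 0.01. With library size in place of the TMM factors, 129 genes rose and 53 fell, and with the exact test of edgeR 336 rose and 262 fell. Of the 107 genes that rose 33 (30.8%) passed the filter on low counts only with the 8 hpf libraries, against 5.58% of all genes tested. These 33 were selected through that stage, so their calls are a description. They include the Hox genes that rose and rx3. Others of the 33 are not marked below. A rise from under 1 CPM in a 6 hpf library is therefore to be read as a description too, also where it enters the count of a list below.

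**Figure D1:**
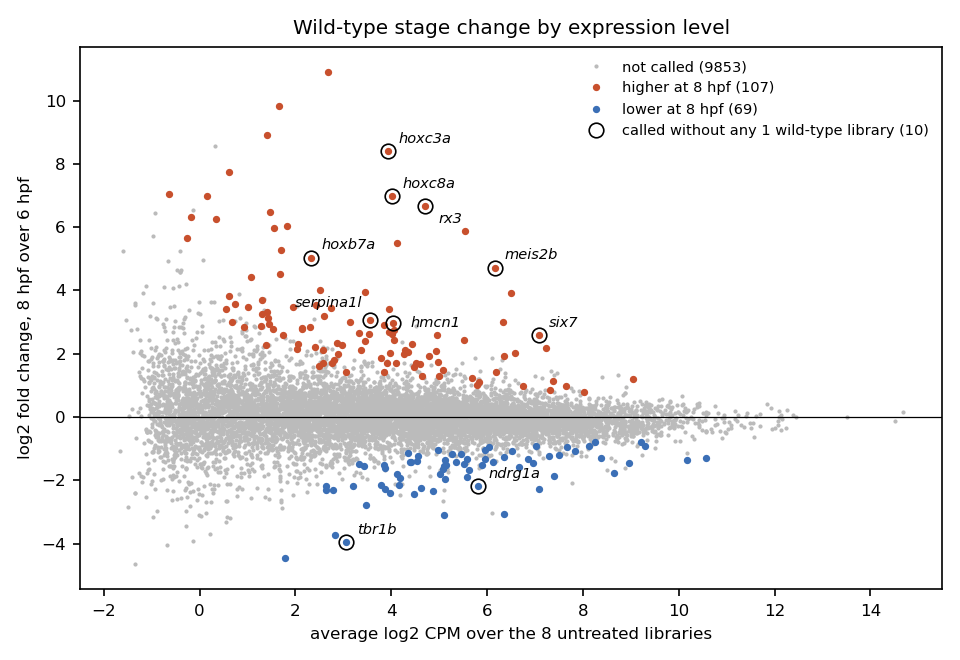
Log2 fold change of 8 hpf over 6 hpf in wild-type embryos (y axis) against average log2 CPM (x axis) for the 10029 genes tested, each point 1 gene, with called genes in colour. The 107 genes that rose lie mostly at low average levels and reach larger changes than the 69 that fell.

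Most of these calls were lost in at least 1 of the fits that left out a library. Without wild-type 6 hpf replicate 1, 12 genes were called, all among the 176, and without replicate 2 of that stage 227 were (85 risen and 142 fallen), 109 of them among the 176. Without 8 hpf replicate 1 and without 8 hpf replicate 2, 35 and 52 genes were called. The mutant libraries, which share the estimate of spread, mattered too, since 46 and 42 genes were called without mutant 8 hpf replicates 1 and 2, and 8 with only the 4 wild-type libraries. Exactly 10 genes (0.0997% of those tested) were called in the full fit and in each of the 4 fits without 1 wild-type library. The 8 that rose were hoxc3a, hoxc8a, hoxb7a, rx3, meis2b, six7, hmcn1 and serpina1l, and those that fell were ndrg1a and tbr1b. Among them hoxc3a, hoxc8a, hoxb7a and rx3 passed the filter on low counts only with the 8 hpf libraries. The same 4 fits are given below for each group of genes, always in the order 6 hpf replicates 1 and 2, then 8 hpf replicates 1 and 2. In a whole embryo, a change in the number of cells that express a gene and a change in RNA per cell cannot be told apart.

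Hox genes, the homeobox genes that give cells their position along the head-to-tail axis, were the group with the most called members. Of 45 Hox genes with counts listed, 19 were tested, of which 11 rose and 0 fell, where 1.07% and 0.688% of all genes did. All but 1 of the 19, hoxc1a, passed the filter on low counts only with the 8 hpf libraries, so these 18 were selected through that stage, and the counts are a description. The level of hoxc3a was 0.0528 and 0.0860 CPM at 6 hpf and 24.9 and 28.8 CPM at 8 hpf. It was thus near 0 in both early libraries, from 3 counts in all, and close to the same level in both later ones, a ratio of 378 (95% counting interval 129 to 1834), with a fitted log2 change of 8.41 ± 0.54 (SE, adjusted p = 0.00265), the smallest adjusted p of all genes. For hoxc8a the levels were 0.317 and 0.215 CPM at 6 hpf and 42.4 and 25.5 CPM at 8 hpf. The groups lay far apart, with a log2 change of 6.97 ± 0.52 (adjusted p = 0.00395), 126-fold. For hoxb7a, 0.264 and 0.258 CPM became 9.15 and 8.47 CPM. Its replicates were the closest of these 3 genes at both stages, and its log2 change was 5.04 ± 0.47 (adjusted p = 0.00697), 32.8-fold.

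The remaining Hox genes that rose came from the hoxb and hoxc clusters as well. The level of hoxb3a went from 0.0528 and 0.129 CPM to 6.61 and 6.76 CPM (adjusted p = 0.00768), and that of hoxc6a from 0.0528 and 0.172 CPM to 5.14 and 4.44 CPM (adjusted p = 0.0130). No count of hoxb9a was found at 6 hpf, and at 8 hpf it stood at 23.0 and 7.70 CPM, at least 216-fold higher against a floor of 3 counts over the group (adjusted p = 0.0143). Likewise hoxb10a was at 11.7 and 2.73 CPM after 0 counts at 6 hpf, at least 101-fold higher (adjusted p = 0.0281). Also without a count at 6 hpf, hoxc6b reached 6.08 and 1.48 CPM, hoxc4a 1.18 and 0.830 CPM and hoxb5a 0.886 and 1.19 CPM, at least 53.2-fold, 14.1-fold and 14.6-fold higher (adjusted p = 0.0345, 0.0381 and 0.0493). For hoxc9a, 2 counts at 6 hpf gave a ratio of 103 (95% counting interval 28.0 to 857, adjusted p = 0.0239). In hoxb9a, hoxb10a and hoxc6b replicate 1 of 8 hpf held the higher value.

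By cluster, 5 of 9 tested hoxb genes and 6 of 9 tested hoxc genes rose, and the single hoxa gene tested, hoxa9a, did not pass, at 0 counts at 6 hpf and 4.66 and 1.36 CPM at 8 hpf (adjusted p = 0.0505). Of those not called, hoxb8a was at 0.106 and 1.29 CPM and then at 10.6 and 6.04 CPM (adjusted p = 0.0781), and hoxb1a, an early hindbrain gene, at 0.634 and 0.473 CPM and then at 3.37 and 2.79 CPM (adjusted p = 0.164). Only hoxc1a had overlapping stages, with 0.898 and 1.63 CPM against 1.42 and 1.24 CPM. Summed over the 19, the level was 2.69 and 4.47 CPM at 6 hpf and 163 and 105 CPM at 8 hpf. A further 26 Hox genes in the table were under the filter on low counts. Of these, 15 had no count at 6 hpf, 16 had more counts at 8 hpf and 3 had fewer, with no more than 11 in any library. Of the 11 calls, 3, 8, 6 and 9 were kept when 6 hpf replicate 1, 6 hpf replicate 2, 8 hpf replicate 1 and 8 hpf replicate 2 were left out.

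**Figure D2:**
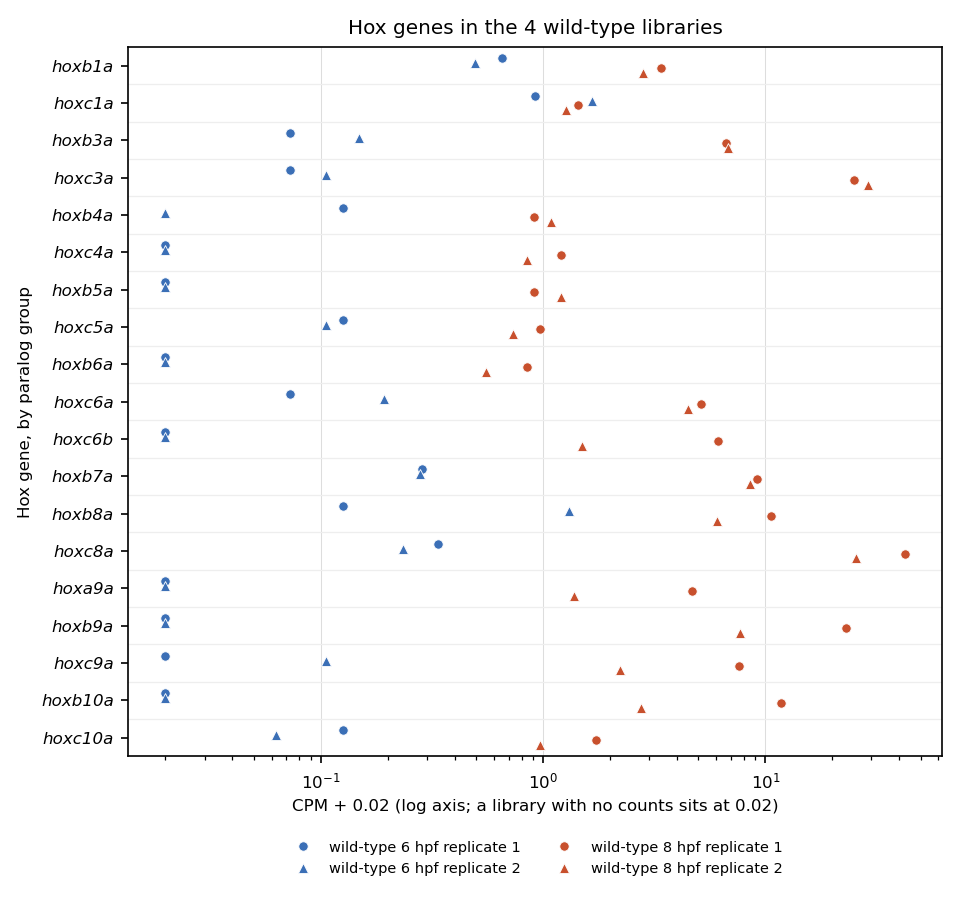
Level in CPM + 0.02 on a log axis (x axis) of the 19 tested Hox genes (y axis, ordered by paralog group) in the 4 wild-type libraries, each point 1 library. The 8 hpf points lie above the 6 hpf points in every gene except hoxc1a, and 11 of the 19 rose.

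The homeobox genes meis3 and meis2b rose as well. TALE homeodomain proteins of the Meis family bind DNA together with Hox proteins. The level of meis3 was 12.2 and 14.1 CPM at 6 hpf and 98.7 and 113.8 CPM at 8 hpf, 8.08-fold higher (log2 change 3.01 ± 0.36, adjusted p = 0.0130). For meis2b it was 6.97 and 2.15 CPM and then 83.5 and 154 CPM, 26.3-fold higher (log2 change 4.71 ± 0.59, adjusted p = 0.0130). Stages were separate for both genes, and replicates of meis2b differed by more than those of meis3. Another Meis gene, meis1b, was not called (log2 change 1.25, adjusted p = 0.280). The call of meis2b held without any single wild-type library, while that of meis3 was lost without one of them (adjusted p up to 0.0637).

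Neural ectoderm genes formed the next group. Of 29 tested, 7 rose and 0 fell, where 1.07% and 0.688% of all genes did. The 7 include rx3, pax6b, fezf2 and neurog1, each under 1 CPM in a 6 hpf library. Their rises, and so part of this count, are a description. In 21 both 8 hpf libraries lay above both 6 hpf libraries, against 24.2% of all genes. The median log2 change was 0.95 against 0.01 over all genes. The eye field gene rx3, needed to form eyes, was at 0.264 and 0.215 CPM at 6 hpf and at 19.2 and 30.5 CPM at 8 hpf. It was barely detected in both early libraries, and rose 101-fold (log2 change 6.66 ± 0.64, adjusted p = 0.00640). Like most Hox genes tested, rx3 passed the filter on low counts only with the 8 hpf libraries, so these values are a description. A second forebrain gene, fezf2, went from 0.158 and 1.42 CPM to 41.0 and 57.4 CPM, 59.1-fold (adjusted p = 0.0239), with early replicates that differed among themselves. For otx2, which specifies forebrain and midbrain, the levels were 23.3 and 43.1 CPM and then 146 and 157 CPM, 4.55-fold (adjusted p = 0.0326). Unlike the former 2 genes, otx2 was already above 20 CPM in both early libraries.

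The eye and brain gene pax6b was at 0.528 and 0.430 CPM and then at 6.38 and 4.33 CPM, 11.1-fold higher (adjusted p = 0.0389). Both libraries of zic1, a zinc-finger gene of the neural plate, were also higher, with 5.70 and 8.04 CPM against 32.1 and 51.6 CPM (log2 change 2.60 ± 0.53, adjusted p = 0.0491). The proneural gene neurog1, which commits cells to become neurons, rose from 0.423 and 1.16 CPM to 6.43 and 6.10 CPM (log2 change 2.95 ± 0.57, adjusted p = 0.0408). The seventh member was meis3. Of these 7 calls 1, 5, 2 and 2 were kept when 6 hpf replicate 1, 6 hpf replicate 2, 8 hpf replicate 1 and 8 hpf replicate 2 were left out, with adjusted p up to 0.211. The homeobox gene six7 stood outside this list and rose from 22.6 and 31.7 CPM to 157 and 171 CPM, 6.03-fold (log2 change 2.59 ± 0.26, adjusted p = 0.00640), a call kept without any single wild-type library.

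At the border of the neural plate, where neural crest and placodes arise, 3 of 19 genes rose and 1 fell. Over all genes these shares were 1.07% and 0.688%. The median log2 change of the list was 1.27. The crest gene pax3a went from 0.158 and 0.215 CPM to 3.25 and 5.21 CPM, 21.6-fold (adjusted p = 0.0233). For dlx3b, required for ear and nose placodes, 14.1 and 34.1 CPM became 140.3 and 120.8 CPM, 5.41-fold (adjusted p = 0.0326). Of snai2, a transcriptional repressor of the snail family, the level fell from 122.01 and 149.6 CPM to 55.1 and 52.9 CPM (log2 change -1.33 ± 0.26, adjusted p = 0.0450). The stages of these 3 genes did not overlap, with snai2 moving against the other members called. Non-neural ectoderm gave 2 risen genes of 12, dlx3b and tfap2a, which both count among the 3 risen border genes as well. The epidermal and crest transcription factor tfap2a was at 205 and 244 CPM and then at 397 and 386 CPM, 1.74-fold higher (adjusted p = 0.0493). The epidermal ionocyte gene foxi3a of the non-neural list was at 0.158 and 0.344 CPM and then at 2.48 and 4.09 CPM, which did not pass (adjusted p = 0.0931). The median of that list was 0.66. Of the 4 border calls 0, 2, 1 and 0 were kept when 6 hpf replicate 1, 6 hpf replicate 2, 8 hpf replicate 1 and 8 hpf replicate 2 were left out, with adjusted p up to 0.233. Of the 2 non-neural ectoderm calls 0, 1, 0 and 0 were kept in the same fits, and tfap2a was kept in none.

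Mesoderm of the trunk and tail held 3 genes that rose among 23 tested, against 1.07% of all genes. None fell, and the median log2 change was 0.30. The T-box gene tbx6, which commits cells to paraxial mesoderm, went from 25.6 and 28.7 CPM to 104 and 114.1 CPM, 4.02-fold (log2 change 2.01 ± 0.32, adjusted p = 0.0239). Its replicates were close at both stages. For cdx4, a posterior gene that acts upstream of Hox genes, 366 and 335 CPM became 784 and 823 CPM, 2.29-fold (adjusted p = 0.0239), and for the muscle determination gene myf5, 9.14 and 8.82 CPM became 23.7 and 20.3 CPM, 2.45-fold (adjusted p = 0.0319). The mesoderm gene ta, known as Brachyury or no tail, was at 468 and 496 CPM and then at 266 and 357 CPM, and did not pass (adjusted p = 0.233). Left out one at a time, 6 hpf replicate 1, 6 hpf replicate 2, 8 hpf replicate 1 and 8 hpf replicate 2 left 0, 2, 0 and 0 of these 3 calls.

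Along the dorsal midline, 2 of 15 organizer and axial mesoderm genes rose, against 1.07% of all genes. The first, ctslb, a cathepsin of the hatching gland, whose cells come from the prechordal plate, went from 1.16 and 0.602 CPM to 8.91 and 7.11 CPM, 9.11-fold (log2 change 3.19 ± 0.47, adjusted p = 0.0191). The second, shhb, a Hedgehog ligand of the midline, went from 3.96 and 5.63 CPM to 15.9 and 19.1 CPM, 3.64-fold (adjusted p = 0.0341). The notochord gene noto was at 74.7 and 102 CPM and then at 76.6 and 112.4 CPM, and the organizer gene lhx1a at 39.0 and 47.6 CPM and then at 12.9 and 14.6 CPM (adjusted p = 0.0688). In this list of 15, 8 genes were higher and 4 lower in both 8 hpf libraries. Over all genes tested these shares were 24.2% and 22.5%, so the share that was lower was near that over all genes. The calls of ctslb and shhb were lost when some of the wild-type libraries were left out, 0, 2, 0 and 1 of 2 being kept without 6 hpf replicate 1, 6 hpf replicate 2, 8 hpf replicate 1 and 8 hpf replicate 2. Reads of ctslb may be shared with other cathepsin L genes. In the list of ventral mesoderm and blood, 0 of 9 members were called, with a median log2 change of -0.27. At the share over all genes (1.75%) so short a list would most often hold no call.

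**Figure D3:**
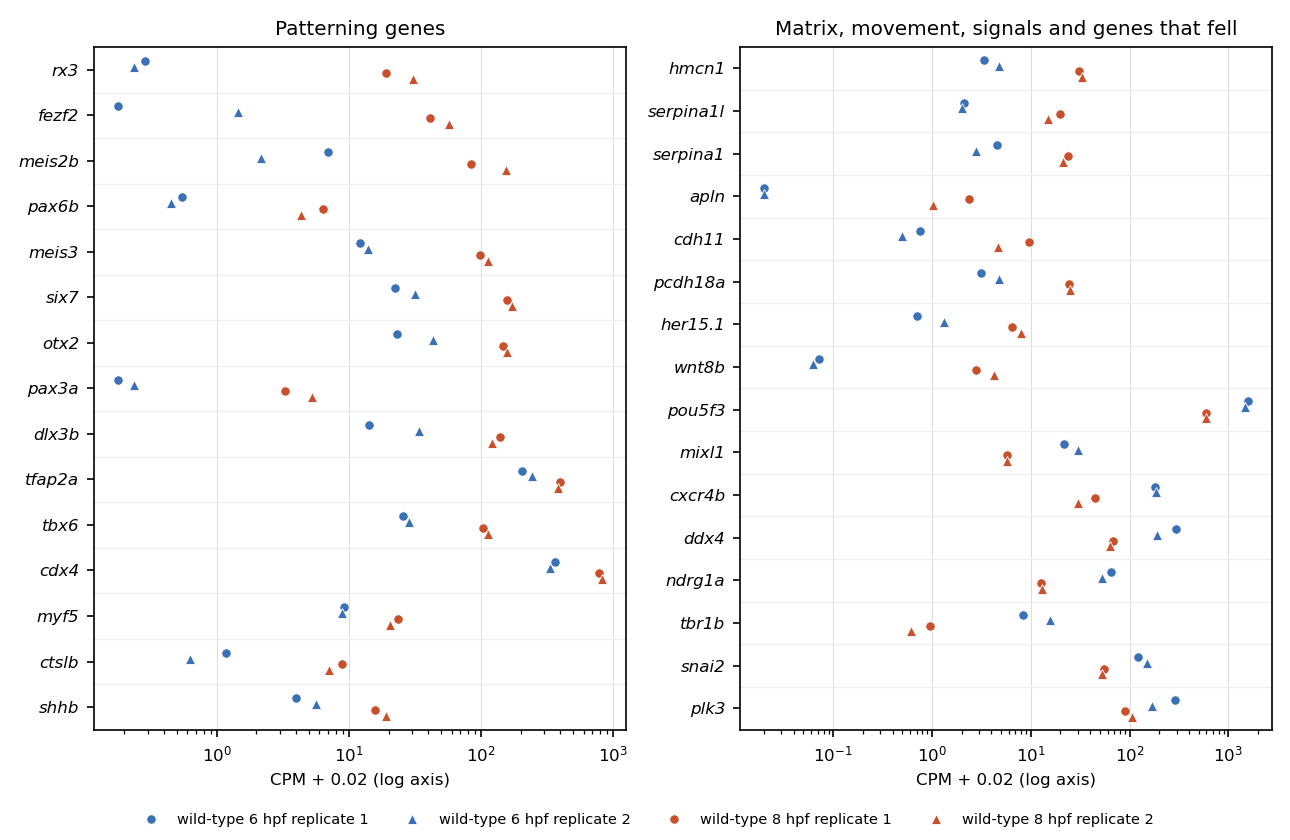
Level in CPM + 0.02 on a log axis (x axis) in each wild-type library for called genes named in the text (y axis), each point 1 library. In all genes plotted the 2 libraries of 1 stage lie above both libraries of the other, as they do in all 176 called genes.

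Signalling lists held between 0 and 3 called genes each, where 1.75% of all genes tested were called. Of 36 members of the BMP pathway 0 were called, 16 were higher and 7 lower in both 8 hpf libraries, and the median log2 change was 0.26. Over all genes 24.2% were higher and 22.5% lower in both 8 hpf libraries. The Wnt list of 32 held a ligand and a receptor that rose. For wnt8b, a ligand expressed in the brain, 0.0528 and 0.0430 CPM became 2.77 and 4.21 CPM, a ratio of 73.6 from 2 counts at 6 hpf (95% counting interval 19.9 to 615, adjusted p = 0.0177). For the receptor fzd10, 29.0 and 30.5 CPM became 68.9 and 72.6 CPM, 2.37-fold (log2 change 1.25 ± 0.18, adjusted p = 0.0188). Replicates of fzd10 were close relative to its change. With 2 counts of wnt8b at 6 hpf, its early replicates say little about spread, and its rise is a description.

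Among 21 FGF genes, fgfrl1a, a receptor-like membrane protein, rose from 0.528 and 0.688 CPM to 2.54 and 3.44 CPM (adjusted p = 0.0450), and among 15 retinoic acid genes crabp2a, which binds retinoic acid in the cytoplasm, rose from 0.264 and 0.344 CPM to 11.5 and 3.02 CPM (log2 change 4.53 ± 0.76, adjusted p = 0.0326). The 8 hpf replicates of crabp2a differed more than those of fgfrl1a. Of 27 Notch pathway and hairy-related genes 3 rose, all transcriptional repressors of the her family. For her15.1 the levels were 0.687 and 1.29 CPM and then 6.49 and 7.88 CPM (7.16-fold, adjusted p = 0.0177), for her5 5.02 and 6.67 CPM and then 14.3 and 30.2 CPM (adjusted p = 0.0341), and for her12 4.91 and 8.13 CPM and then 17.4 and 25.4 CPM (adjusted p = 0.0484). Reads of her15.1 may be shared with its near copy her15.2. Without 6 hpf replicate 1 none (0) of these Wnt, FGF, retinoic acid and Notch calls were kept. Without 6 hpf replicate 2 both Wnt and all 3 her calls were, and without 8 hpf replicate 1 and 8 hpf replicate 2 there were 1 and 1 Wnt calls and 2 and 0 her calls. The fgfrl1a call was lost without any one of the 4 wild-type libraries (adjusted p up to 0.216), and that of crabp2a was kept only without 8 hpf replicate 2 (up to 0.148 in the others).

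Genes of cell movement and adhesion moved both ways, with 3 of 37 risen, 1 fallen and a median log2 change of -0.27. Over all genes tested 1.07% rose and 0.688% fell. In this list 13 members were higher and 12 lower in both 8 hpf libraries, against 24.2% and 22.5% of all genes. The apelin ligand apln had no count at 6 hpf and 2.36 and 1.01 CPM at 8 hpf, at least 23.7-fold higher (adjusted p = 0.0239). The cell adhesion genes cdh11 and pcdh18a went from 0.739 and 0.473 CPM to 9.62 and 4.62 CPM (11.7-fold, adjusted p = 0.0177) and from 3.12 and 4.73 CPM to 24.1 and 25.0 CPM (6.23-fold, adjusted p = 0.0257). In contrast cxcr4b, the chemokine receptor that guides primordial germ cells, fell from 179.6 and 183 CPM to 45.2 and 30.4 CPM, 4.80-fold (log2 change -2.26 ± 0.33, adjusted p = 0.0191). All 4 calls were kept without 6 hpf replicate 2, and 0, 0 and 2 were kept without 6 hpf replicate 1, 8 hpf replicate 1 and 8 hpf replicate 2.

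The list of cadherins and protocadherins, which shares members with it, held 2 risen genes of 36, with a median of 0.54. In both 8 hpf libraries 26 members were higher, against 24.2% of all genes. Cell contact and guidance genes held 3 risen of 30. Over all genes tested 1.07% rose and 1.75% were called in either direction. The Eph receptor ephb3a rose from 7.18 and 4.60 CPM to 23.1 and 24.2 CPM (adjusted p = 0.0319), the ephrin efna2a from 2.90 and 2.41 CPM to 6.97 and 10.4 CPM (adjusted p = 0.0408), and nrp2b, a neuropilin co-receptor for semaphorins, from 8.29 and 6.19 CPM to 32.8 and 30.4 CPM (adjusted p = 0.0143). Fibronectin, a matrix protein of the somites, missed the threshold, with fn1b at 41.7 and 24.3 CPM and then at 105 and 74.4 CPM (adjusted p = 0.0508). Outside these lists hmcn1, encoding the extracellular matrix protein hemicentin, rose from 3.38 and 4.77 CPM to 30.8 and 33.1 CPM, 7.81-fold (log2 change 2.97 ± 0.30, adjusted p = 0.00640), and was called without any single wild-type library. The Eph and semaphorin calls kept without 6 hpf replicate 1, 6 hpf replicate 2, 8 hpf replicate 1 and 8 hpf replicate 2 were 0, 1, 0 and 1 of 3. The muscle actin actc1a, from 6.39 and 8.69 CPM to 27.7 and 32.5 CPM (adjusted p = 0.0481), was the 1 called gene among 42 tubulins, actins and myosins, and its call was lost without any one of the 4 wild-type libraries (adjusted p up to 0.214).

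Extraembryonic layers were checked with their own markers, beside the 1.07% of all genes that rose. In the yolk syncytial layer, the nuclei-rich layer that feeds the embryo, 1 of 13 genes rose, the serum protease inhibitor serpina1, from 4.49 and 2.80 CPM to 23.6 and 21.1 CPM, 6.14-fold (log2 change 2.62 ± 0.35, adjusted p = 0.0143). This call was lost without 8 hpf replicate 1 (adjusted p = 0.0576). Its neighbour in sequence serpina1l went from 2.11 and 1.98 CPM to 19.8 and 14.8 CPM, 8.45-fold (log2 change 3.08 ± 0.31, adjusted p = 0.00640), and reads of these related genes may be shared. Of the 13, 6 were higher and 1 lower in both 8 hpf libraries, against 24.2% and 22.5% of all genes, and 6 overlapped. In 9 of the 13, replicate 1 was above replicate 2 at both stages, a count not made over all genes tested. Over all transcripts tested, the deviations of replicate 1 at the 2 stages correlated (r = 0.472). The count thus does not set this list apart. The lipid transfer gene mttp was at 961 and 202 CPM at 6 hpf and at 166 and 108 CPM at 8 hpf (adjusted p = 0.107), the transferrin gene tfa at 622 and 145 CPM and then at 489.9 and 326 CPM, and the apolipoprotein gene apobb.1 at 138 and 40.3 CPM and then at 379 and 113.4 CPM. In mttp both 6 hpf libraries were above both 8 hpf libraries, and in tfa and apobb.1 the stages overlapped. The summed level of the 13 genes was 3709.5 and 1893 CPM at 6 hpf and 3423 and 2659.9 CPM at 8 hpf. Of 22 genes of the enveloping layer, the outer epithelium, 0 were called, and their median was 0.01. At the share over all genes (1.75%) a list of this length would most often hold no call.

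The genes that fell included regulators of the early embryo. The Nodal list covers 15 genes of the signal that induces mesoderm and endoderm and of its targets. Of these 10 were lower and 2 higher in both 8 hpf libraries, against 22.5% and 24.2% of all genes, and the median log2 change was -0.62. The smallest p of the members not called was that of smad3b, which was higher at 8 hpf (log2 change 2.09, adjusted p = 0.0656). The list had 1 fallen member, where 0.688% of all genes fell. That member was mixl1, a homeobox gene for endoderm, at 21.7 and 29.8 CPM and then at 5.79 and 5.75 CPM, 4.46-fold lower (log2 change -2.16 ± 0.41, adjusted p = 0.0394). It was also the 1 called gene among 12 endoderm genes, and the call was lost without any one of the 4 wild-type libraries (adjusted p up to 0.171). In the endoderm list 5 genes were higher and 4 lower in both 8 hpf libraries, and the median log2 change was -0.05. Of 16 pluripotency-type factors, pou5f3, the zebrafish relative of Oct4, fell from 1572 and 1486 CPM to 595 and 597 CPM, 2.57-fold (log2 change -1.36 ± 0.23, adjusted p = 0.0257), with replicates that were close at both stages. The T-box gene eomesa, an early mesendoderm regulator with maternal RNA, was at 5.55 and 2.49 CPM and then at 1.36 and 0.948 CPM (adjusted p = 0.105). In the pluripotency-type list 5 members were higher and 7 lower in both 8 hpf libraries, and the median log2 change was -0.17. Over all genes these shares were 24.2% and 22.5%. The smallest p of its members not called was that of klf2b, which was higher at 8 hpf (log2 change 0.91, adjusted p = 0.0633).

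Germ plasm is the maternal material that founds the germ line. Of its 13 genes 1 fell, ddx4 (vasa), an RNA helicase of germ cells, from 294 and 188 CPM to 68.7 and 62.6 CPM, 3.67-fold (log2 change -1.88 ± 0.27, adjusted p = 0.0181). Over all genes 0.688% fell and 1.75% were called in either direction. Of the 13, 9 were lower in both 8 hpf libraries, against 22.5% of all genes. The germ cell gene piwil1 was at 38.2 and 21.2 CPM and then at 6.49 and 7.05 CPM (adjusted p = 0.0737). Of 24 oocyte and egg genes 0 were called, although 14 were lower and 2 higher in both 8 hpf libraries, against 22.5% and 24.2% of all genes. Their median was -0.72. The smallest p in that list was that of npm2a, an egg nucleoplasmin, at 10.6 and 10.1 CPM and then at 3.19 and 2.90 CPM (adjusted p = 0.0913). Another member, zar1, had a log2 change of -0.37 (adjusted p = 0.681). The summed level of the list was 1171 and 1167 CPM at 6 hpf and 882 and 837 CPM at 8 hpf. Of 35 cell cycle genes 1 fell, plk3, a kinase of the polo family, from 285 and 168 CPM to 90.5 and 106 CPM (adjusted p = 0.0470). In this list 19 were lower in both 8 hpf libraries, against 22.5% of all genes, and the median was -0.40. The embryonic cyclin ccna1 was at 34.8 and 32.4 CPM and then at 8.91 and 11.4 CPM (adjusted p = 0.100). The calls of pou5f3, ddx4 and plk3 were each kept without 6 hpf replicate 2 and lost without each of the other 3, with adjusted p up to 0.181.

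Outside these lists the steadiest falls were those of ndrg1a and tbr1b. The level of ndrg1a, an N-myc downstream regulated gene known from kidney and ionocytes, was 64.9 and 52.1 CPM at 6 hpf and 12.8 and 12.9 CPM at 8 hpf, 4.55-fold lower (log2 change -2.19 ± 0.24, adjusted p = 0.00768). For tbr1b, a T-box gene related to eomesa, 8.29 and 15.8 CPM became 0.945 and 0.593 CPM, 15.5-fold lower (log2 change -3.96 ± 0.45, adjusted p = 0.00906). Both kept the call without any single wild-type library. Chosen after their values were seen, morc3b fell from 10.7 and 6.41 CPM to 0.531 and 0.237 CPM, the largest fall by fold among called genes (log2 change -4.45 ± 0.58, adjusted p = 0.0141), and marcksl1b, encoding an actin-regulating MARCKS-like protein, fell from 1919 and 1826 CPM to 749.8 and 779 CPM (log2 change -1.29 ± 0.18, adjusted p = 0.0177). Left-out libraries took the adjusted p of morc3b up to 0.0637 and that of marcksl1b up to 0.0931.

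**Figure D4:**
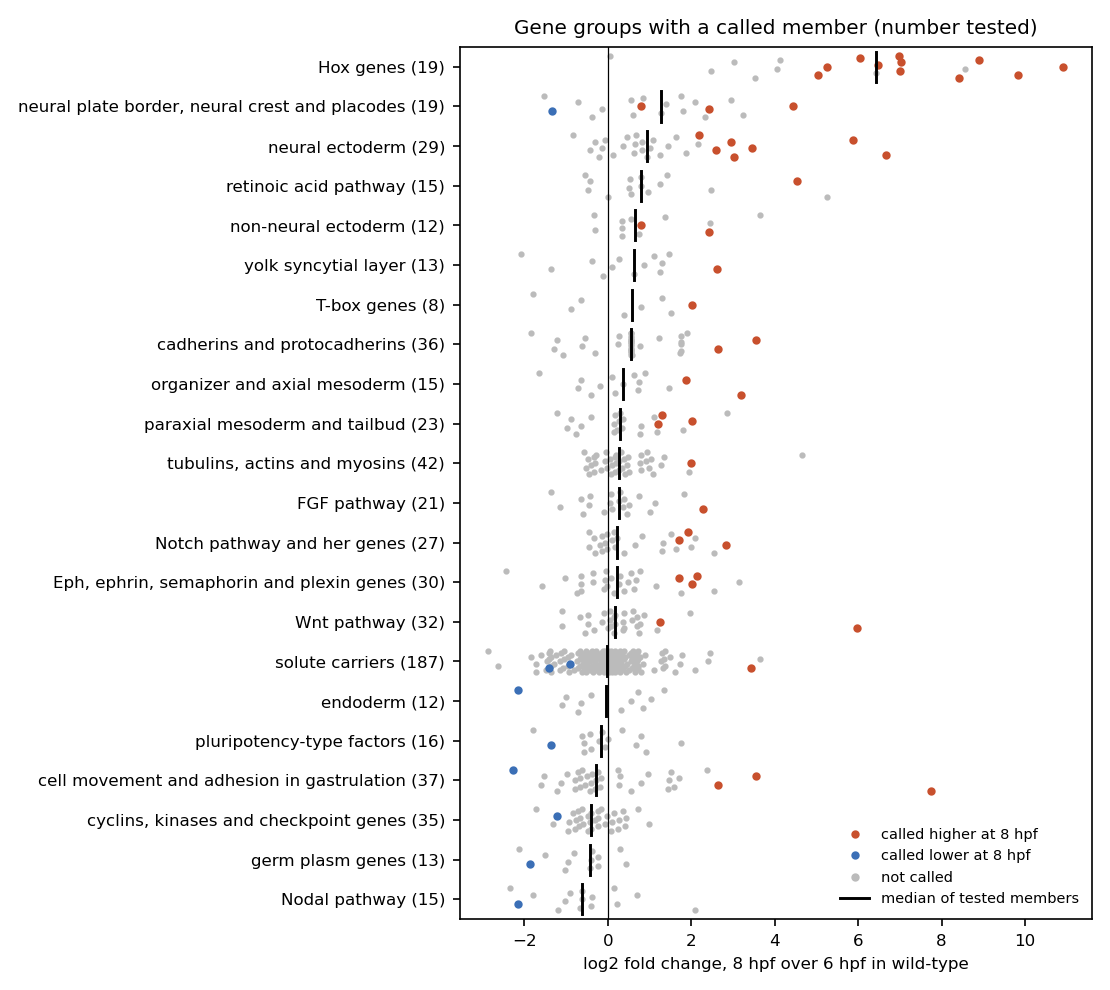
The 22 gene lists with a called member (y axis), each with the log2 fold change of 8 hpf over 6 hpf in wild-type embryos of its tested members (x axis, points), called members in colour and the list median as a line. Hox genes lie farthest to the right, where genes without a count at 6 hpf are plotted as fitted and all but 1 gene passed the filter only with the 8 hpf libraries, and the Nodal list has a median of -0.62.

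Of the ribosomal protein, proteasome and respiratory chain genes 0 were called, in lists where the share over all genes (1.75%) comes to about 1 gene each. The median log2 change was 0.29 for 75 ribosomal protein genes, 0.14 for 42 proteasome genes and 0.23 for 79 respiratory chain genes. Of 65 translation factors and 81 znf zinc finger genes 0 were called as well. Of 187 solute carriers, slc22a3 rose, from 0.264 and 0.215 CPM to 3.72 and 1.54 CPM (adjusted p = 0.0390), and slc2a12 and slc37a2 fell, from 79.0 and 54.7 CPM to 23.9 and 26.5 CPM (adjusted p = 0.0390) and from 308 and 261 CPM to 157 and 145 CPM (adjusted p = 0.0319). Of these 3 calls 0, 2, 0 and 1 were kept in the same 4 fits. In all, 22 of the 38 lists held a called member and 16 held none. Over all lists, 50 different members of 1216 tested were called, 42 of which rose, and this number was 5, 56, 15 and 20 when 6 hpf replicate 1, 6 hpf replicate 2, 8 hpf replicate 1 and 8 hpf replicate 2 were left out.

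Some chaperones set the 8 hpf replicates apart. The Hsp40 gene dnajb1b was at 589 and 510.4 CPM at 6 hpf and at 1168 and 102 CPM at 8 hpf, the collagen chaperone serpinh1b at 734 and 1208 CPM and then at 2828 and 281 CPM, and the heat-inducible hsp70.3 at 167 and 104 CPM and then at 133 and 5.45 CPM. In each, 8 hpf replicate 1 held far more than 8 hpf replicate 2. Of 69 heat shock and chaperone genes, 8 (11.6%) were at least 4-fold higher in 8 hpf replicate 1, against 1.81% of all genes tested. In 8 hpf replicate 2, 2 (2.9%) were, against 2.18%. At 6 hpf 1 (1.45%) was in replicate 1 and 4 (5.8%) were in replicate 2, against 2.35% and 1.57%. The summed level of the 69 was 20619 and 16870 CPM at 8 hpf, and 0 were called between stages, where 1.75% of all genes were. Without 8 hpf replicate 1, 35 genes were called between stages, 27 of them among the 176. The same fit called 6 genes for the difference of the stage changes between genotypes, wild-type minus mutant, all of them negative, namely dnajb1b, serpinh1b, hspa4a, hspbp1, pdia4 and rsrp1 (adjusted p = 0.0315).

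The bmp7 mutants, whose embryos are dorsalized because BMP signalling patterns ventral fates, gave the same stage comparison without Bmp7. In the mutants 533 genes rose (5.31%) and 559 fell (5.57%) by the same rule. Of the 107 wild-type genes that rose 97 also rose in mutants, of the 69 that fell 67 also fell, and 0 were called in opposite directions. The stage change had the same sign in both genotypes in 174 of the 176 genes, against 73.3% of all genes tested. The mutant and wild-type embryos do not share libraries, but they share the fit and its estimate of spread. Their log2 changes correlated across genes at Pearson's r = 0.692 and Spearman's rho = 0.625, as a description, since genes are not independent replicates.

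The genotypes were then compared in the size of the stage change itself. The difference of the stage changes, wild-type minus mutant, passed in 0 of 10029 genes by edgeR's quasi-likelihood test, with 555 (5.53%) at an unadjusted p under 0.05, in 21 by its likelihood ratio test and in 23 by DESeq2. The smallest p belonged to foxi1, a forkhead gene of non-neural ectoderm. It was at 29.6 and 62.2 CPM and then at 111 and 127 CPM in wild-type embryos, and at 9.47 and 4.79 CPM and then at 0.777 and 0.775 CPM in mutants, a difference of 4.56 ± 0.66 (SE) on the log2 scale (adjusted p = 0.329). The BMP pseudoreceptor bambia was at 185 and 189 CPM and then at 237 and 238 CPM in wild-type embryos, and at 91.6 and 59.5 CPM and then at 20.4 and 22.6 CPM in mutants, a difference of 2.15 ± 0.31 (adjusted p = 0.329). The signs were thus opposite in the genotypes for both genes, and the wild-type change of neither was called (adjusted p = 0.108 and 0.450).

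For eve1, a homeobox gene of ventral and posterior cells, the levels were 157 and 103 CPM and then 89.7 and 108 CPM in wild-type embryos, and 74.9 and 55.3 CPM and then 10.5 and 7.80 CPM in mutants, a difference of 2.47 (adjusted p = 0.334). The other members of the 10 with the smallest p were the ventral repressors ved and vox (1.54 and 1.42), the BMP target id3 (1.46), tfap2a (1.35), tfap2c (1.63), the matrix gene postnb (2.44) and, in the opposite direction, serpina1l (-2.33), with adjusted p up to 0.515. Of these 10, 7 belonged to the BMP pathway or non-neural ectoderm lists, and 9 passed by DESeq2. Those lists hold 36 and 12 of the 10029 genes tested and share members. Over all genes, DESeq2 called 13 with a positive and 10 with a negative difference. The negative ones include the chaperone genes hspa5, hspe1, hspa13 and dnajb2. In the non-neural ectoderm list this signed difference was above 0 in 11 of 12 genes, with a median of 1.23, against -0.01 over all genes. By that last median, slightly more of all genes lay below 0 than above it. The difference was above 0 in 24 of 36 BMP pathway genes, with a median of 0.28, and in 11 of 29 neural ectoderm genes, with a median of -0.22. These counts were not tested, and the lists were written with earlier results of these data known. A positive value includes genes such as foxi1 that moved farther in mutants, downwards.

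The Hox gene hoxc3a and the eye field gene rx3, which rose in wild-type embryos, rose in mutants too (adjusted p = 0.000822 and 0.00102). Both passed the filter on low counts only with the 8 hpf libraries, so these calls are a description. In mutants hoxc3a had no count at 6 hpf and was at 24.1 and 43.1 CPM at 8 hpf, and rx3 was at 0 and 0.244 CPM and then at 50.1 and 109.7 CPM. The median log2 change of neural ectoderm genes was 1.29 in mutants and 0.95 in wild-type embryos, and that of non-neural ectoderm genes was -0.42 and 0.66.

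**Figure D5:**
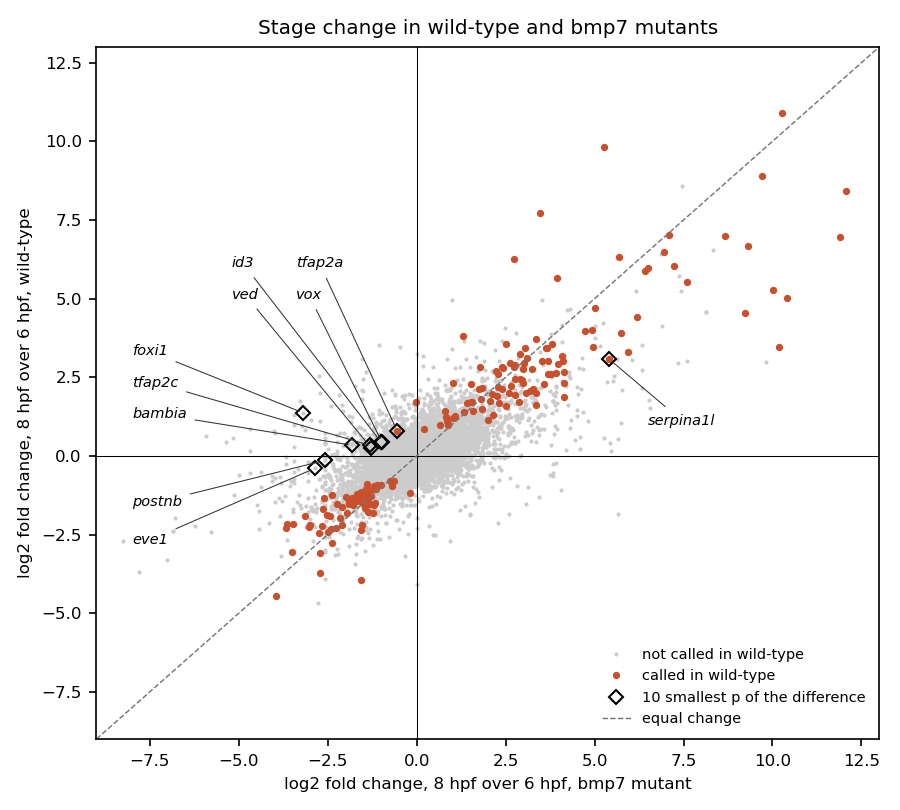
Log2 fold change of 8 hpf over 6 hpf in wild-type embryos (y axis) against that in bmp7 mutants (x axis), each point 1 gene, with the genes called in wild-type embryos and those with the smallest p for the difference marked. Of the 176 called genes 174 have the same sign in both, while foxi1 is higher at 8 hpf in wild-type embryos and lower in mutants.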

How the data were processed

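RNA from pooled untreated embryos had been sequenced as stranded polyadenylated libraries. The authors mapped reads on GRCz11 using the RNA-seq Unified Mapper (RUM) and deposited raw read counts per RefSeq transcript, 14532 in all. The version of RUM and the use of strand in counting were not given in the sources used here. The deposited table also holds 14 columns of normalized log2 values and 93 columns of comparisons (fold changes, p-values, FDR), none of which were used. Its comparison headings for untreated embryos exchange the genotypes, so library headings were used. Date-like entries in place of 14 symbols were replaced by the symbols that RefSeq lists for their transcripts, where it lists one.

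Differences were tested in R 4.3.3 with edgeR 4.0.16 (glmQLFit and glmQLFTest, TMM, filterByExpr with a minimum count of 10) over 8 untreated libraries in 4 groups. The biological coefficient of variation was 0.270. Adjustment ran over 10555 transcripts, and the transcript with the highest mean count stands for each gene. Levels near 0 are limited by depth, and intervals and floors cover counting error only. Figures were drawn with matplotlib 3.10.9.

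Genes, gene lists and tests were chosen with earlier results of these data known. The text names up to 15 genes per direction called without any single wild-type library, with an average log2 CPM of at least 1, up to 5 called members per list and direction, bmp7a, and the 10 genes with the smallest p for the difference between genotypes. Some members that did not pass are named too, without a fixed rule. Among these npm2a, ccna1, fn1b, piwil1, hoxa9a, lhx1a, foxi3a, klf2b, smad3b and mttp had the smallest p of the members not called in a list. They thus do not stand for the other members. A further 16 genes, among them the remaining called Hox and neural genes and the yolk layer and chaperone examples, were chosen after their values were seen. Of the 57 and the 16, 0 had another gene with counts within 5% in all 8 libraries. Most members named as not passing were outside this check. Alternatives were other tests, normalizations, filters and sets of libraries, DESeq2 1.42.0, and leaving out each library. No sequences are given.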

Additional observations from a re-analysis of the deposited data

How the results depend on the processing

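The count of called genes depended on the test and the libraries. It was 598 (336 risen, 262 fallen) with edgeR's exact test, 639 with the likelihood ratio test, 577 with DESeq2 and 389 without a filter on low counts. DESeq2 shared 175 of the 176 genes, and the others held all 176. It was 171 with RLE factors, 184 with upper quartile and 182 with library size, which put the median log2 change of all genes at -0.00, 0.08 and 0.10, against 0.01. It was 176 with a minimum count of 50, 173 with 1 transcript per gene, 10 at an adjusted p under 0.01, 20 against a minimum change of 2-fold and 8 (all risen) with only the 4 wild-type libraries. Leaving out 1 of the 8 libraries gave 12 to 227 genes, and 0 to 6 genes for the difference between genotypes. Leaving out 1 of the 4 wild-type libraries gave 0.411% to 4.61% of list members, a share not computed without a mutant library. That difference gave 21 genes with the likelihood ratio test, 23 with DESeq2 and 3 without a filter. Of list members tested, 4.11% were called, and 0.493% with only the 4 wild-type libraries.

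With the replicate number as a block, called genes were 525 (271 risen, 254 fallen) and called list members 9.62%. The replicate block with only the 4 wild-type libraries, an alternative chosen after seeing the data, gave 1032. Same-numbered wild-type libraries of the 2 stages deviated together (r = 0.472), and so did those of the mutants (r = 0.346). Between the genotypes r was 0.207 at 6 hpf and -0.018 at 8 hpf. With 2 pairs per genotype these values do not show that the numbers pair the libraries. No called gene named by rule changed sign in the 16 alternatives run for single genes. The 5 genes hoxb7a, hoxc3a, hoxc8a, rx3 and six7 were called in each. Of these, hoxb7a, hoxc3a, hoxc8a and rx3 passed the filter on low counts only with the libraries of the later stage. Their calls are thus a description here too, which does not hold for six7. Medians of 5 lists (endoderm, enveloping layer, chaperones, histones, solute carriers), all near 0, changed sign with scaling.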
